A study of Mus musculus with 15 samples.

Results

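Kidney RNA of 15 male C57BL/6 mice was sequenced, and each age (3, 12 and 24 months) was represented by 5 of them. All were fed ordinary chow, and the labels name no treatment or engineered allele, so age is the only factor that the labels vary. The comparison asked how kidney RNA changes with age, with 3-month-old mice called young here and 24-month-old mice called old. P-values measure the spread between these mice. The subject here is 8 genes of the podocyte, taken as a list of names (Nphs1, Podxl, Synpo, Wt1, Plce1, Cd2ap, Actn4 and Ptpro) out of 33058 gene names. The value of a gene was the sum of the FPKM (fragments scaled to transcript length and library size) of its transcripts, over 70 rows for the 8 genes.

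The podocyte is the epithelial cell that wraps the glomerular capillary. Its interlocking foot processes are bridged by the slit diaphragm, the last layer of the filter that keeps protein out of the urine, and its actin skeleton holds those processes in shape. Podocytes hardly divide in the adult, and their loss is a known feature of glomerular scarring. Nephrin, the product of Nphs1, spans the slit. Cd2ap links nephrin to actin. Podocalyxin (Podxl) is the charged sialomucin of the apical membrane, and Ptpro is a receptor tyrosine phosphatase of that same membrane. Synaptopodin (Synpo) and alpha-actinin-4 (Actn4) organise actin. Wt1 is the zinc-finger transcription factor that maintains the podocyte state, and Plce1 is a phospholipase C needed for glomerular maturation. Podxl is also made by endothelium, and Actn4 and Cd2ap by many kidney cells. In whole kidney at least these 3 are thus not readouts of podocytes alone. Further sources of the other members were not tested. In such bulk samples fewer podocytes and less RNA per podocyte cannot be told apart.

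Across the 15 mice no member showed a change with age that passed adjustment, in any of the 3 comparisons. For 24 against 3 months Plce1 had the largest ratio of means and was the only member whose 3- and 24-month-old mice did not overlap, which held for the rows summed here and not for other choices of rows. Between mice of the same age, Nphs1 and Podxl varied together (r = 0.919). With the GC slope of each library regressed out, r was 0.850 and the call was lost (adjusted permutation p = 0.161).

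The libraries held 5.03 to 6.13 Gb of aligned sequence at 3 months, 5.84 to 8.03 Gb at 12 months and 6.07 to 7.33 Gb at 24 months. All 52 genes of 11 marker lists for endothelium, mesangium and vessel wall, parietal epithelium, tubule segments, collecting duct and immune cells were above 0 in every mouse. Of these 52 genes, none passed adjustment in any comparison by limma, whereas 11 were higher (11.4% of all genes) and 4 lower (3.47%) at 24 than at 3 months at an unadjusted p under 0.05, 5 of the former being immune genes. The counts were 9 (11.4%) and 5 (2.9%) for 12 against 3 months and 2 (3.07%) and 2 (3.36%) for 24 against 12 months. One young mouse, replicate 6 at 3 months, stood apart. Its summed FPKM for mesangium and vessel wall genes was 219 against 51.9 to 121 in the other 14 mice, mostly from renin (Ren1), and that for collecting duct genes was 183 against 42.8 to 115. The late proximal tubule genes were at 199 against 233 to 490 in the others. That mouse also had the highest Nphs1, Podxl, Synpo and Wt1 and the lowest Cd2ap of the 15, so results are given below with and without it.

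**Figure D1:**
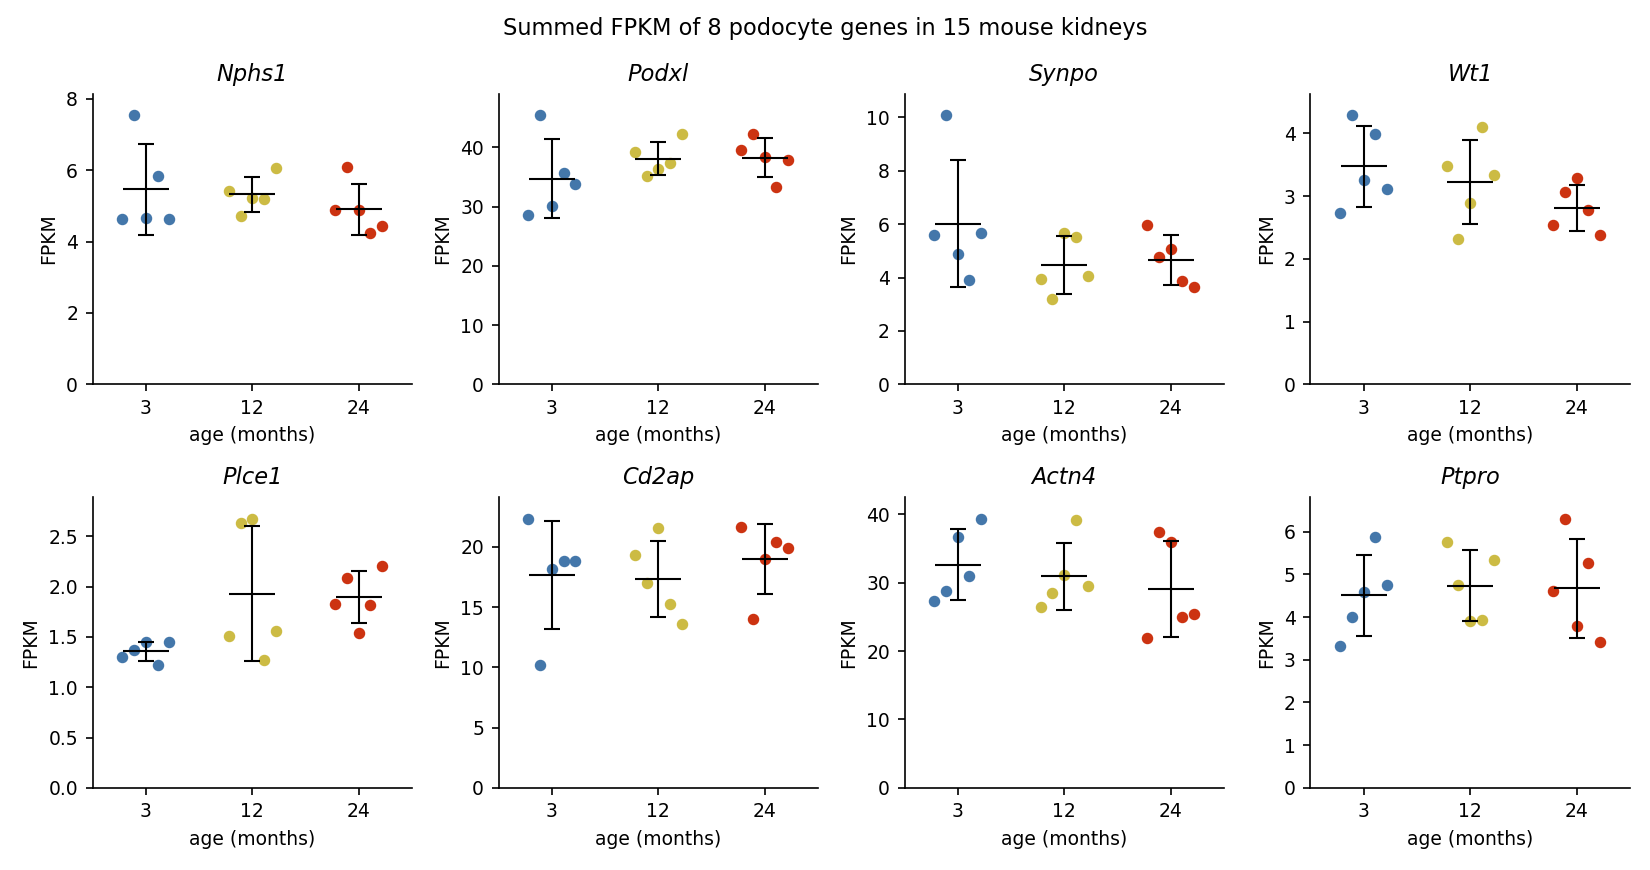
Summed FPKM (vertical axes, from 0) of each of the 8 genes against age in months (horizontal axes), with 1 point per mouse, 5 mice per age, and bars for the mean and SD. For Plce1 the 5 mice of 3 months lie between 1.22 and 1.45 and those of 24 months between 1.54 and 2.21; for the other 7 genes the ages overlap.

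By level, the members fell into a high and a low group. Over 15 mice the mean FPKM was 37.0 ± 4.56 (SD) for Podxl, 30.9 ± 5.56 for Actn4 and 18.01 ± 3.41 for Cd2ap. These are the genes named above as having further sources in the kidney. Podxl exceeded 97.2% of all gene names, and Cd2ap 93.0%. The remaining genes lay lower, with 5.23 ± 0.861 for Nphs1, 5.05 ± 1.64 for Synpo, 4.64 ± 0.921 for Ptpro, 3.17 ± 0.606 for Wt1 and 1.73 ± 0.474 for Plce1. Nphs1, Synpo and Ptpro were within 1 SD of each other. FPKM is per length, but some of these sums rest in part on transcripts the authors assembled, so levels compare only roughly between genes.

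Nphs1 read 4.64, 7.55, 4.67, 5.85 and 4.62 FPKM in the young mice, 5.42, 4.73, 5.22, 5.18 and 6.07 at 12 months, and 4.89, 6.09, 4.88, 4.24 and 4.44 in the old mice. The ages overlapped fully, and the top value was the young replicate 6. The difference of 24 minus 3 months was -0.12 ± 0.14 (SE) on the log2(FPKM + 1) scale, with an adjusted p of 0.709 by limma. Without replicate 6 it was -0.01 with an adjusted p of 0.970, so the small negative value rested on that mouse.

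Cd2ap, the adapter of nephrin, read 22.4, 10.2, 18.2, 18.8 and 18.8 FPKM at 3 months, 19.3, 17.03, 21.6, 15.3 and 13.6 at 12 months and 21.6, 14.0, 19.02, 20.4 and 19.9 at 24 months. Here replicate 6 was the lowest mouse. The log2 difference of 24 minus 3 months was 0.13 ± 0.19 (limma adjusted p = 0.777), and without replicate 6 it was -0.05 (adjusted p = 0.877).

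Podxl read 28.5, 45.5, 30.1, 35.7 and 33.9 FPKM in young mice, 39.2, 35.1, 36.4, 37.3 and 42.3 at 12 months, and 39.6, 42.3, 38.3, 33.2 and 37.9 in old mice. The 10 older mice all lay at 33.2 or above, while 4 of 5 young mice were at 35.7 or below and replicate 6 was the highest of all. The log2 difference of 24 minus 3 months was 0.15 ± 0.12 (limma adjusted p = 0.639). Leaving out replicate 6 gave 0.25 ± 0.09 (unadjusted p = 0.0253, adjusted p = 0.272). For 12 minus 3 months the same step moved 0.15 (adjusted p = 0.636) to 0.24 (adjusted p = 0.288). The summed FPKM of 8 endothelial genes, another source of Podxl, was 75.3 to 99.9 at 3 months, 68.1 to 109 at 12 months and 88.9 to 118 at 24 months; none of the 8 passed adjustment for 24 against 3 months, and 2 were higher at an unadjusted p under 0.05, as were 11.4% of all genes. The part of endothelium in the Podxl values was not tested.

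Ptpro ranged from 3.32 to 5.88 FPKM at 3 months, 3.90 to 5.77 at 12 months and 3.43 to 6.31 at 24 months. Its log2 difference of 24 minus 3 months, 0.04 ± 0.16, was the smallest of the 8 in size and had an adjusted p of 0.930.

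Synpo read 5.59, 10.1, 4.87, 3.92 and 5.65 FPKM in young mice, 3.93, 3.20, 5.65, 5.52 and 4.04 at 12 months, and 5.95, 4.77, 5.08, 3.88 and 3.65 in old mice. Replicate 6 again stood alone, and the highest of the other 14 mice was at 5.95. The log2 difference was -0.27 ± 0.21 for 24 minus 3 months (limma adjusted p = 0.614) and -0.33 ± 0.22 for 12 minus 3 months (adjusted p = 0.540). Without replicate 6 these were -0.09 (adjusted p = 0.796) and -0.15 (adjusted p = 0.699). Actn4 had means of 32.6 ± 5.19, 30.9 ± 4.88 and 29.1 ± 7.04 FPKM at 3, 12 and 24 months (SD, n = 5 each), and its log2 difference of 24 minus 3 months was -0.18 ± 0.17 with an adjusted p of 0.662.

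Wt1 read 2.73, 4.29, 3.26, 3.98 and 3.11 FPKM in young mice, 3.48, 2.31, 2.88, 4.11 and 3.34 at 12 months, and 2.54, 3.07, 3.29, 2.78 and 2.38 in old mice. The ages overlapped, and the highest old mouse was below the 2 highest young ones. The log2 difference of 24 minus 3 months was -0.22 ± 0.12 (unadjusted p = 0.0869, adjusted p = 0.424). It was -0.16 without replicate 6, and it turned to 0.11 (adjusted p = 0.729) where only transcripts of the reference annotation were summed and the authors' 1 assembled Wt1 transcript was left out.

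Wt1 is spliced in alternative ways between its last zinc fingers, where 2 splice donors include or skip 9 bases. The form that includes them (+KTS) is known for binding RNA and being needed in podocytes, and the one that skips them (-KTS) for binding DNA. The following stretches, read from reference transcripts of GENCODE on GRCm38, are shown because they are what separates these forms. Capitals mark the 9 bases of the KTS codons.
Wt1 +KTS (ENSMUST00000133470): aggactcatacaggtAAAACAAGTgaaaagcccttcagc
Wt1 -KTS (ENSMUST00000139585): aggactcatacaggtgaaaagcccttcagc
The exon before the junction ends at 105170018 in +KTS transcripts and at 105170009 in -KTS transcripts. Of the reference Wt1 FPKM that could be put in either class, +KTS took 78.2% ± 17.4 at 3 months, 82.5% ± 6.31 at 12 months and 73.5% ± 12.2 at 24 months (SD, n = 5 each). The lowest of 15 mice was at 54.9%, and 1 young mouse had no -KTS transcript assigned. The shares overlapped between ages, and 24 against 3 months gave p = 0.627 in the exact permutation test (2-sided, n = 5 per age). The assembled Wt1 transcript and the retained-intron rows entered neither class.

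Plce1 read 1.30, 1.37, 1.45, 1.22 and 1.45 FPKM in young mice, 1.51, 2.63, 2.68, 1.27 and 1.55 at 12 months, and 1.82, 2.08, 1.54, 1.82 and 2.21 in old mice. All 5 old mice were above all 5 young ones, and the 12-month-old mice were split, with replicates 18 and 19 above 2.6 and replicate 20 within the young range. The mean of the old mice was 1.40 times that of the young. The log2 difference was 0.29 ± 0.10 by limma (unadjusted p = 0.0131, adjusted p = 0.188). The exact permutation test gave p = 0.00794 (2-sided, not adjusted), the smallest that 5 against 5 mice allow. Any 5 against 5 values without overlap give this p, so it adds nothing to the lack of overlap. Without replicate 6 the difference was 0.30 (adjusted p = 0.264). With the 2 intronic rows added to the sum, young replicate 8 read 3.41 FPKM, the ages overlapped and the difference was 0.11 (limma adjusted p = 0.818). On reference transcripts alone the ages also overlapped, at 0.156 to 1.30 FPKM in young and 0.645 to 1.28 in old mice. Rows annotated as retained intron took 24.4% of the gene, averaging 0.110 and 0.0794 FPKM in young and 0.533 and 0.134 in old mice. The 2 protein-coding reference rows averaged 0.219 and 0.123 in young and 0.0156 and 0.214 in old mice. The Plce1 sum is thus not a readout of coding RNA alone.

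Counted over the list, 0 of 8 members passed an adjusted p of 0.05 for 24 against 3 months, when 1.22% of 31755 genes tested did. At an unadjusted p under 0.05, 1 of 8 members (Plce1, higher) passed, against 14.9% of all genes and 11.4% in the higher direction, and none passed an unadjusted p under 0.05 together with an absolute log2 difference above 1, which 0.523% of all genes did. Groups that did not overlap were found for 1 of 8 members and for 4.73% of all genes (3.82% higher). Their median log2 difference was -0.04, beside 0.02 for all genes, with 4 members higher and 4 lower. For 12 against 3 months none of 8 members passed adjustment (background 0.25%) or an unadjusted p of 0.05 (background 14.3%), the lowest adjusted p being 0.457 for Plce1. For 24 against 12 months no member passed adjustment (background 0.0031%) or an unadjusted p of 0.05 (background 6.43%), and the differences ran from -0.14 to 0.13.

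**Figure D2:**
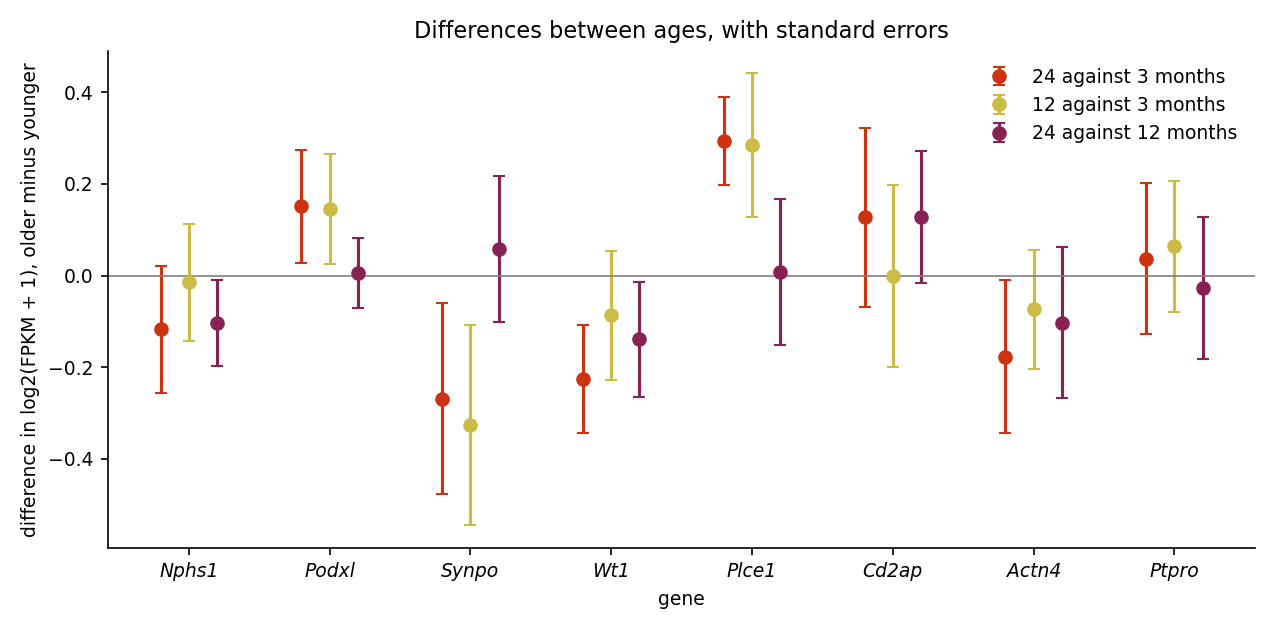
Difference in log2(FPKM + 1), older minus younger (vertical axis), for the 8 genes (horizontal axis) in the 3 comparisons of ages, with bars for the standard error, n = 5 mice per age. The differences of 24 minus 3 months run from -0.27 for Synpo to 0.29 for Plce1; most bars reach or cross 0, and no difference passes adjustment.

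To place the members among their neighbours, 51 further genes of the podocyte and of the glomerular basement membrane were examined in 5 lists. For 24 against 3 months 1 of the 51 passed adjustment (limma), beside 1.22% of all genes (0.211% lower). At an unadjusted p under 0.05, 6 were higher (11.4% of all genes) and 7 lower (3.47% of all genes), and the median log2 difference was 0.01. The 1 called gene was Arhgdia, whose loss causes nephrotic syndrome. Its mean over 15 mice was 34.6 FPKM, beside 30.9 for Actn4 and 5.23 for Nphs1. Which kidney cells its RNA came from was not tested. Arhgdia read 45.4 to 57.4 FPKM in young mice and 15.8 to 18.8 in old mice, a log2 difference of -1.48 ± 0.08 (adjusted p = 0.000157). At 12 months 3 mice lay between 19.4 and 21.6 and replicates 18 and 19 at 56.3 and 58.1, with none between; those were also the mice with the highest Plce1 of the 15. For 12 against 3 months none of the 51 passed adjustment, with 11 higher (11.4% of all genes) and 1 lower (2.9%) at an unadjusted p under 0.05. For 24 against 12 months none passed either, with 0 higher (3.07%) and 4 lower (3.36%).

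Between 3 and 24 months, the polarity gene Pard3 (log2 difference -0.25, adjusted p = 0.183) and the adapter Nck2 (-0.30, adjusted p = 0.289) had the lowest p-values among the other slit diaphragm genes. Of the basement membrane, Col4a3, a chain of the mature collagen IV network made by podocytes, was at 44.1 ± 5.14 FPKM in young and 31.6 ± 3.89 in old mice without overlap, a log2 difference of -0.47 ± 0.11 with an adjusted p of 0.0704. Its partner chain Col4a4 had -0.38 (adjusted p = 0.329), and nidogen-1 (Nid1) 0.31 (adjusted p = 0.297). Nephronectin (Npnt), a matrix ligand of integrins, had -0.65 ± 0.15 with an adjusted p of 0.0766, beside 0.27 for Pla2r1 (adjusted p = 0.205) and 0.51 for the cell cycle inhibitor Cdkn1c (adjusted p = 0.260). None of the 6 transcription factors passed an unadjusted p of 0.05; Foxc1, Foxc2 and Foxd1 were listed at 0 in several mice.

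Of the 70 rows, 53 were reference transcripts and 17 were transcripts the authors assembled with a new junction. A single protein-coding transcript took 90.4% of Nphs1 and 93.7% of Podxl. At the other end, assembled transcripts took 76.7% of Actn4, 63.7% of Synpo, 62.0% of Cd2ap and 45.6% of Plce1. One assembled Actn4 transcript was 27832 bases long, and a Cd2ap one was 13328. StringTie divides reads among overlapping transcripts, and in the 6 genes with more than 1 transcript of at least 10% of the gene each of these varied more than the gene's sum. For Plce1 the SD within ages was 24.3% of the mean for the gene and 65.9% to 147% for its 4 transcripts of at least 10% of the gene. Nphs1 and Podxl have 1 such transcript each, at 17.07% beside 17.04% for the gene in Nphs1 and 12.3% beside 12.4% in Podxl.

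No transcript of a member passed adjustment in any comparison (limma), beside 0.0192% of all transcripts for 24 against 3 months, 0.00481% for 12 against 3 months and 0.00559% for 24 against 12 months. For 24 against 3 months 11 of 76 tested member rows, intronic ones included, had an unadjusted p under 0.05, when 7.9% of 124719 transcripts did; 5 were higher (background 5.43%) and 6 lower (2.47%). Groups did not overlap for 7 of the 76, beside 2.13% of all. Overlapping rows of a gene divide its reads among them, so the rows counted are not independent. For 12 against 3 months 8 of 78 rows had an unadjusted p under 0.05 (background 7.46%). For 24 against 12 months 1 of 78 did (background 4.47%). Of the 21 transcripts that took at least 10% of their gene, 5 were among the 11.

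In Plce1, a 33-exon assembled transcript (MSTRG.18138.3) was at 1.09, 0.548, 1.07 and 1.25 FPKM in 4 young mice and listed at 0 in the fifth, and it was listed at 0 in 4 of 5 old mice. A 34-exon one over nearly the same span (MSTRG.18138.4) did the reverse, with at most 0.00351 FPKM in every young mouse and 0.694, 1.44, 0.0184, 0.542 and 1.16 in the old mice. The old mouse that kept the former, replicate 33 at 0.765, was the one with little of the latter. At 12 months replicates 19 and 20 had the former (0.920 and 0.834), replicates 18 and 21 the latter (0.501 and 0.979), and replicate 17 next to none of either. Limma gave unadjusted p-values of 0.0415 and 0.00568 for 24 against 3 months and adjusted ones of 0.610 and 0.390. A 22-exon Plce1 transcript annotated as retained intron (ENSMUST00000182589) read 0, 0.159, 0.204, 0.0879 and 0.1001 FPKM in young and 0.716, 0.489, 0.558, 0.743 and 0.160 in old mice (adjusted p = 0.407).

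In Actn4 the 27832-base assembled transcript read 5.66, 7.25, 12.1, 6.66 and 6.33 FPKM in young mice and 5.01, 0, 0, 0.613 and 5.3998 in old mice (unadjusted p = 0.00858, adjusted p = 0.427). The old mice listed at 0 had Actn4 sums of 37.5 and 35.9, the highest of their age. A 1-exon Actn4 row annotated as retained intron (ENSMUST00000207765) had 2.60 ± 0.541 FPKM at 3 months, 1.09 ± 0.202 at 12 months (adjusted p = 0.218) and 1.36 ± 0.553 at 24 months (adjusted p = 0.462), and neither later age overlapped with the young mice.

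Wt1 has an internal start. The transcripts of the first exon begin between 105126529 and 105127210 of chromosome 2 (GRCm38, plus strand), and 2 protein-coding reference transcripts, ENSMUST00000111098 and ENSMUST00000111099, begin in intron 1 at 105130883. Both were listed at 0 in all 5 young mice and were above 0 in all 5 old mice. Summed, they read 0, 0.241, 0.424, 0.570 and 0.793 FPKM at 12 months and 0.0927, 0.641, 1.21, 1.17 and 0.685 at 24 months. Transcripts from the first exon summed to between 2.01 and 3.36 FPKM in young mice, 1.54 to 2.84 at 12 months and 0.982 to 2.01 in old mice. The assembled transcript of the first exon (MSTRG.20244.2) read 0.853, 1.27, 0.790, 2.14 and 0.263 FPKM in young and 0.166, 0.161, 0.0688, 0 and 0.292 in old mice. For 24 against 3 months limma gave the internal-start transcripts unadjusted p-values of 0.00267 and 0.00634 and adjusted ones of 0.326 and 0.396, and the assembled one an adjusted p of 0.386. The pattern of 0 in all young and above 0 in all old mice was met by 99 of 124719 transcripts (0.0794%). The young libraries held 83226 to 86350 transcripts above 0, fewer than any older library (87548 to 89709). Age and the detection of low transcripts thus cannot be told apart here. The grouping by start was made after the values were seen and carries no test. A retained-intron row starting at 105130800 covers that same internal start and was above 0 in all 15 mice, at 0.473, 0.526 and 0.366 FPKM on average at 3, 12 and 24 months.

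**Figure D3:**
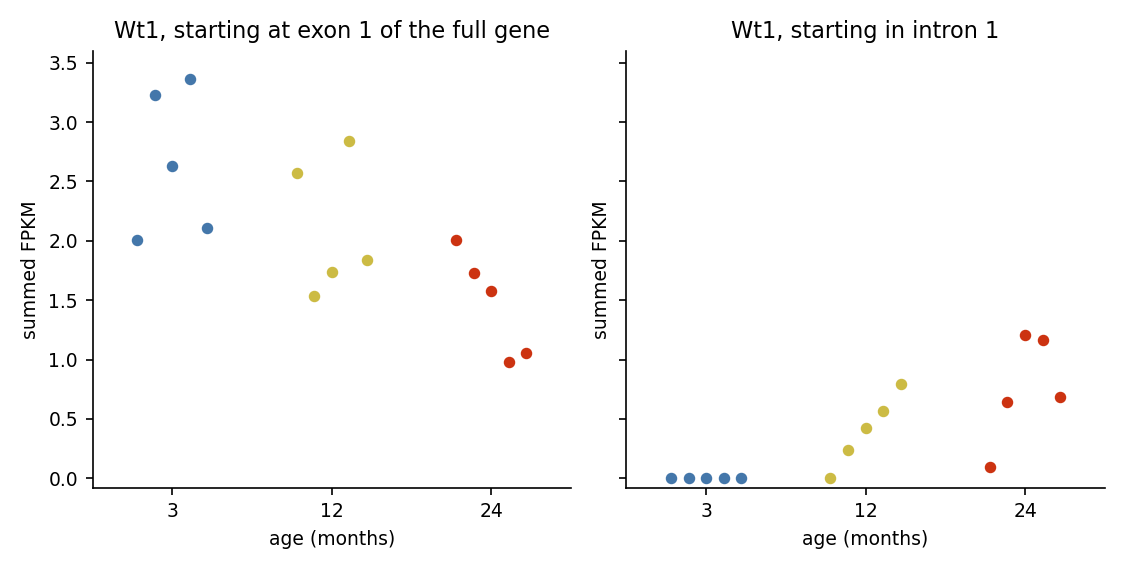
Summed FPKM of Wt1 transcripts (vertical axes) that begin at the first exon (left) or within intron 1 (right) against age in months (horizontal axes), with 1 point per mouse. The internal-start transcripts are listed at 0 in all 5 mice of 3 months and reach 1.21 at 24 months, while the first-exon transcripts reach 3.36 at 3 months and at most 2.01 at 24 months.

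Ptpro likewise has a long form with its extracellular part, which begins at 137252334 or 137252465 of chromosome 6, and a short form that begins at 137410721 or 137410737. The short form is the truncated one described in blood cells and bone. The forms were grouped after the values were seen and carry no test. The short form took 0%, 0%, 64.4%, 66.8% and 56.8% of the summed forms in young mice, 72.1%, 63.0%, 0.0226%, 37.6% and 63.4% at 12 months and 27.3%, 68.9%, 7.41%, 75.5% and 2.46% in old mice. Mice of one age thus fell at both ends of the range. The sum of Ptpro showed no such split, at 3.32 FPKM at its lowest and 6.31 at its highest.

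Circular RNAs gave a second readout of these loci. The deposited table held 9 circles hosted by members, 4 from Cd2ap, 2 from Plce1, 2 intronic ones from Actn4 and 1 from Ptpro, and none from Nphs1, Podxl, Synpo or Wt1. The circles of Cd2ap overlap in part, as do both of Actn4, so they are not independent. For 24 against 3 months 1 of the 9 was called by edgeR (adjusted p under 0.05), beside 13.3% of 11924 circular RNAs (6.61% lower). It was circRNA276, made of 2 exons of Cd2ap (chr17:42845326-42852528). It read 38.7, 29.3, 29.4, 34.99 and 32.8 CPM (counts scaled to library size) in young mice and 27.1, 25.4, 25.1, 28.1 and 21.9 in old mice. The ages did not overlap, the log2 difference was -0.38, and the adjusted p was 0.0286 (edgeR) or 0.011 (DESeq2). The call was lost when young replicate 8 (adjusted p = 0.0634), young replicate 9 (0.0506), old replicate 33 (0.0693) or old replicate 35 (0.0698) was left out.

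The other 3 Cd2ap circles had means of 145 to 257 CPM at 3 and 24 months and log2 differences of -0.27, -0.16 and -0.16 with adjusted p of 0.126, 0.419 and 0.413. The linear Cd2ap sum was 0.13 on its own scale over the same mice. The Plce1 circle of 1 exon, circRNA4171 (chr19:38523915-38525452), read 8.36, 7.19, 4.94, 7.65 and 9.94 CPM in young mice and 10.5, 10.7, 8.13, 11.4 and 9.27 in old mice. Its log2 difference of 0.39 had the sign of that of the linear gene and an adjusted p of 0.134. No member circle was called for 12 against 3 months (background 6.63%) or 24 against 12 months (background 0.738%), and DESeq2 called none either. At an unadjusted p under 0.05 in edgeR it was 4 of 9 (background 23.7%) and 0 of 9 (background 16.9%). Both Actn4 circles lie within the retained-intron row named above and read 3.78 ± 1.22 and 3.89 ± 1.17 CPM at 3 months against 2.39 ± 0.586 and 2.58 ± 0.717 at 12 months (edgeR adjusted p = 0.121 and 0.160).

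Co-variation was examined over the 15 mice with the mean of each age removed, in 28 pairs. Only Nphs1 and Podxl passed adjustment over the 28 pairs. Pearson's r was 0.919 and Spearman's coefficient 0.849, each with a permutation p of 2.0e-05 (100000 permutations) and an adjusted p of 0.00056. With each library's slope of gene level on GC content regressed out, r was 0.850 and the adjusted permutation p 0.161, and no pair passed. In the 3 ages alike, the mouse with the highest Nphs1 had the highest Podxl: replicate 6 at 3 months (7.55 and 45.5 FPKM), replicate 21 at 12 months (6.07 and 42.3) and replicate 32 at 24 months (6.09 and 42.3). Leaving out the 2 mice farthest in Nphs1 gave r = 0.822, and leaving out any 1 mouse gave 0.832 to 0.955. With ages not centred, r was 0.729 and Spearman's coefficient 0.739 (adjusted p = 0.0274 and p = 0.0622). Of 13445 other genes with a mean of at least 1 FPKM, Podxl was the one with the highest r with Nphs1, and Nphs1 the one with the highest r with Podxl.

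**Figure D4:**
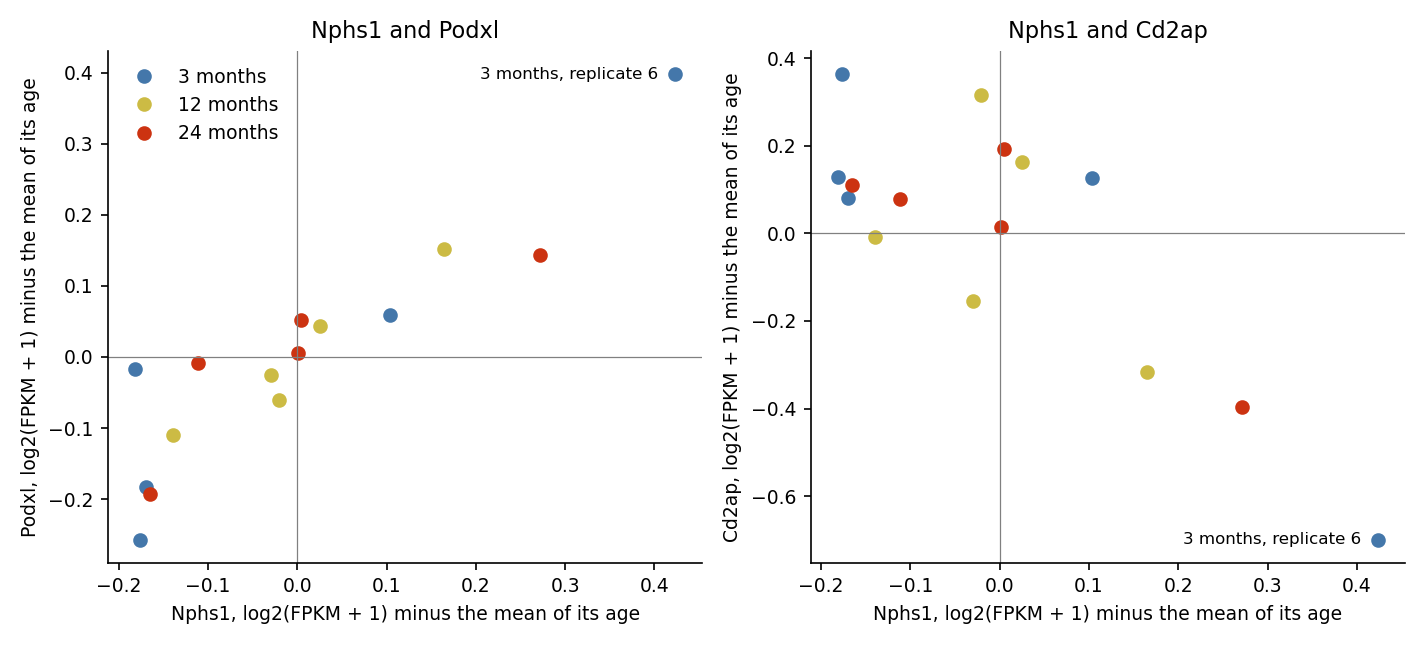
Deviation of Podxl (left) and Cd2ap (right) from the mean of its age, in log2(FPKM + 1), against that of Nphs1 on the horizontal axis, with 1 point per mouse coloured by age. Podxl follows Nphs1 over the 15 mice (r = 0.919), whereas Cd2ap runs the other way (r = -0.80) with replicate 6 of 3 months at the far end. On reference transcripts only, r of Cd2ap with Nphs1 is -0.35.

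Cd2ap ran against both. Its r was -0.80 with Nphs1 (Spearman -0.55) and -0.79 with Podxl (Spearman -0.57), with permutation p = 0.00745 and p = 0.00425 (for Spearman's coefficient 0.0528 and 0.0523) and an adjusted p of 0.0521 for both r. Without the 2 mice farthest in the first gene these fell to -0.31 and -0.48, so they rest in part on those mice. They rest in part on the assembled Cd2ap rows as well, which held 62.0% of the gene. On reference transcripts only, r was -0.35 with Nphs1 and -0.0629 with Podxl. Over the alternative settings the adjusted permutation p reached 0.612 and 0.970. Only 5.52% of genes had an r of -0.5 or below with Nphs1. Wt1 went with Nphs1 at r = 0.649 (Spearman 0.620, permutation p = 0.0104 and p = 0.013, adjusted p = 0.0583; 0.586 without the 2 farthest mice) and with Podxl at 0.602 (Spearman 0.595, adjusted p = 0.113). Wt1 and Plce1 were opposed at -0.69 (Spearman -0.69, permutation p = 0.00706 and p = 0.017, adjusted p = 0.0521), and -0.45 without the 2 farthest mice. Synpo had r = 0.514 with Nphs1 (adjusted p = 0.428), which was 0.0354 without replicate 6. Actn4 and Ptpro had r between -0.36 and 0.38 with every member. In all, 15 of the 28 pairs were positive.

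**Figure D5:**
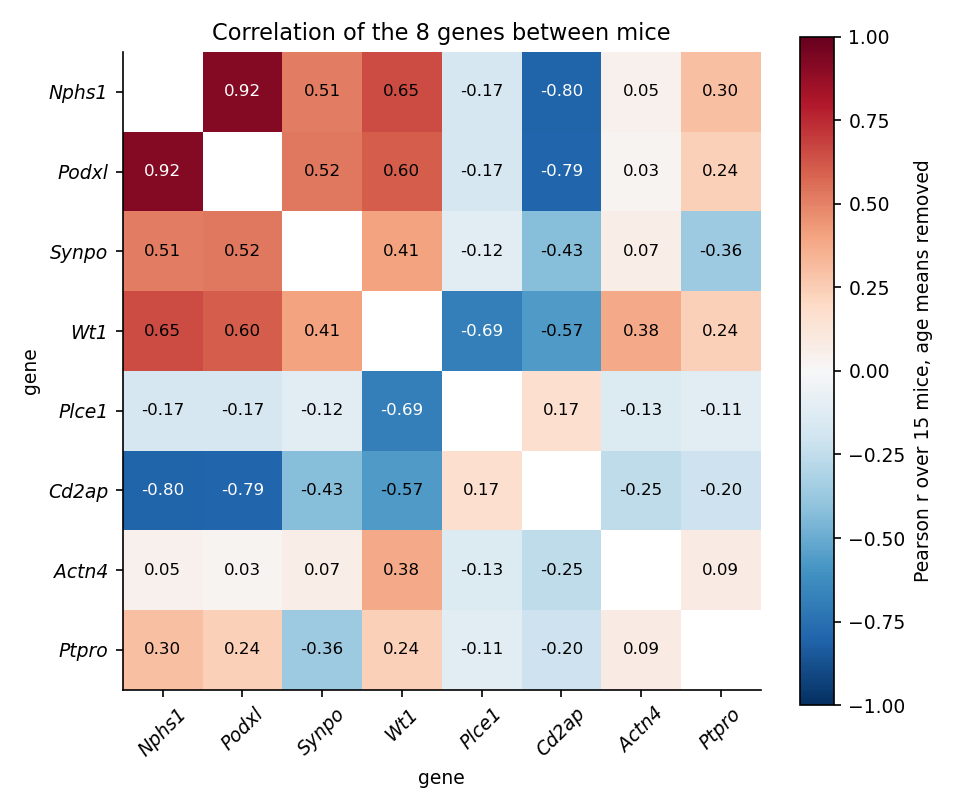
Pearson r between each pair of the 8 genes over 15 mice (colour scale from -1 to 1, value printed in each cell), computed on log2(FPKM + 1) with the mean of each age removed. The Nphs1 and Podxl cell is 0.92, the Cd2ap cells with these genes are -0.80 and -0.79, and Actn4 has values near 0 with both.

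After Podxl, the 9 genes of highest r with Nphs1 were outside the podocyte lists: Ghdc (0.903), Bysl (0.903), Ankrd54 (0.894), Atp2a3 (0.891), Abca7 (0.887), Tmcc2 (0.882), Sympk (0.881), Vdr (0.878) and Izumo4 (0.876). Of the 51 further podocyte and basement membrane genes, laminin beta-2 (Lamb2, 0.822) and the ezrin partner Slc9a3r2 (0.767) ranked highest, at 44 and 137 of 13445. Lamc1 and Pla2r1 (-0.50 each) ranked lowest, at 12721 and 12713, and ezrin (Ezr) itself had -0.47. The median r of the 9 slit diaphragm genes at a mean of at least 1 FPKM was 0.0579, beside 0.0794 for all genes. That of the 11 actin genes was 0.139, of the 10 surface genes 0.0196 and of the 11 basement membrane genes -0.15. Renin, made in the wall of the glomerular arteriole, ranked 69 (r = 0.801, and 0.627 without replicate 6), whereas the median of the 7 mesangium and vessel wall genes was 0.0813. The median r with Nphs1 was 0.574 for 4 collecting duct genes and 0.657 for 3 thick ascending limb genes, and 0.396 and 0.447 without that mouse. Umod, of the thick ascending limb list, went the other way at -0.39, as did the median of 3 late proximal tubule genes (-0.47, and -0.42 without that mouse) and that of 3 distal convoluted tubule genes (-0.34, and -0.14 without it). The part of these cell types in the co-variation of Nphs1 and Podxl was not tested.

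Base composition moved with the values of Nphs1, Podxl and Cd2ap. The GC content was 56.4% for the main Nphs1 transcript, 52.0% for Podxl and 38.6% for Cd2ap, beside a median of 49.9% over genes; only 2.69% of genes had a lower GC content than Cd2ap. For each library the slope of gene level on GC content was computed, and over 15 mice it had r = 0.688 with Nphs1 (Spearman 0.685), 0.676 with Podxl (Spearman 0.659) and -0.71 with Cd2ap (Spearman -0.69), each with an adjusted permutation p of 0.00435 over 8 genes. These were 0.517, 0.649 and -0.56 without the 2 farthest mice. No other member passed. Wt1 and Synpo had a higher GC content than Nphs1, at 60.9% and 58.5%. Their r with the slope was 0.364 and 0.395 (adjusted permutation p = 0.290 and 0.214). Actn4 (55.0%), Ptpro (50.2%) and Plce1 (45.1%) had 0.402, 0.220 and -0.14 (adjusted permutation p = 0.321, 0.587 and 0.674). With the slope regressed out, Podxl ranked 18 for Nphs1. Nphs1 and Cd2ap then had -0.61 and Podxl and Cd2ap -0.60. Wt1 and Plce1 were at -0.69 as before. The 9 other genes most like Nphs1 had a GC content of 52.4% to 60.6%.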

How the data were processed

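The submitters' notes and the study's methods describe removal of ribosomal RNA (labels) or selection of polyadenylated RNA (methods), trimming with Cutadapt, mapping with Bowtie2, HISAT2 (methods) or TopHat2 (notes) to GRCm38, and assembly with StringTie. The authors deposited FPKM and mean coverage (a signal) per transcript, both estimated with StringTie, and estimated counts of circular RNAs, which were rounded here. Whether counting used strand is not stated, and antisense genes overlap Nphs1, Plce1 and Actn4 (Nphs1os, Gm28991 and the end of Capn12).

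FPKM of rows with class code =, c, j or o were summed per gene name; 7 Wt1 and 2 Plce1 intronic rows stayed out. Coverage divided by FPKM gave aligned bases; depth per gene is unknown, so precision is the spread between 5 mice. Genes and transcripts above 0 in at least 1 compared mouse were fitted with limma 3.58.1 (trend) in R 4.3.3 on log2(FPKM + 1), using the 10 mice compared, with Benjamini-Hochberg adjustment over all features; differences on this scale understate changes of low genes. Circular RNAs above 0 in 5 of 10 mice were tested with edgeR 4.0.16 (quasi-likelihood, TMM), with DESeq2 1.42.0 as alternative. Correlations used 100000 permutations, within ages where centred, in Python 3.11.15 with scipy 1.17.1. Each fit was tested on simulated data. Alternatives were another pseudocount, a filter, TPM, all mice in 1 fit, a robust prior, a library covariate, other class codes, other call rules, each mouse left out, and, chosen after seeing the data, the library GC slope as covariate. Nothing states that mice were processed in separate batches. The methods speak of pooled kidney RNA; the samples are listed singly and were treated as 1 mouse each. The members and lists were chosen with earlier results of these data known. Named genes were all members, in each list the genes past adjustment or else the 3 of lowest p (the cell type lists are given by counts, and 1 gene that the rule names is not reported here), the 10 genes most like Nphs1, transcripts of at least 10% of a gene, and hosted circles; the 2 internal-start Wt1 transcripts, the Ptpro forms and some low rows were named after their values were seen.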

Additional observations from a re-analysis of the deposited data

Results flagged for a closer look

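Of 51 groups of 5 mice examined (8 genes and 9 circular RNAs at 3 ages), 4 held 1 mouse far from the rest; chance alone flags about 1 in 20 such groups. Synpo in replicate 6 at 3 months was at 10.1 FPKM, the other 4 young mice being at 3.92 to 5.65. This mouse also had the highest Nphs1, Podxl and Wt1 of the 15, and its collecting duct, mesangial and vessel wall sums stood outside those of all other mice. Both intronic circles of Actn4, which overlap, were at 0.867 CPM (counts scaled to library size) in replicate 31 at 24 months, with 2.75 to 3.35 in the other old mice. The Ptpro circle was at 10.7 CPM in replicate 5 at 3 months, with 13.8 to 14.8 in the other young mice.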

How the results depend on the processing

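No member gene was called under any planned or added alternative that kept adjusted p, in any comparison (lowest adjusted p 0.131); at an unadjusted p of 0.05, 1 was called for 24 against 3 months. Signs of uncalled differences turned in places. For 24 against 3 months, Podxl was -0.0030 and Ptpro -0.0723 with the library covariate, and Wt1 0.11 on reference transcripts only. For 12 against 3 months, Podxl was -0.0382, Ptpro -0.12 and Cd2ap 0.27 with the library covariate, Wt1 0.14 and Cd2ap 0.32 on reference transcripts, and Cd2ap 0.000675 with a pseudocount of 0.1 and 0.31 with the GC slope. For 24 against 12 months, the GC slope as covariate gave 0.0292 for Nphs1, -0.0366 for Plce1, -0.0794 for Cd2ap, 0.0423 for Actn4 and 0.0488 for Ptpro. Plce1 was -0.0239 with the library covariate, -0.15 on reference transcripts and -0.18 with all class codes, Cd2ap was -0.10 on reference transcripts, Wt1 0.28 with all class codes and Ptpro 0.0406 as TPM. Cases where leaving out 1 mouse turned a sign ranged for 24 against 3 months from -0.0481 to 0.23 (Cd2ap) and -0.0600 to 0.12 (Ptpro); for 12 against 3 months from -0.18 to 0.0898 (Cd2ap), -0.0596 to 0.0915 (Nphs1) and -0.0201 to 0.15 (Ptpro); and for 24 against 12 months from -0.0762 to 0.10 (Plce1), -0.0305 to 0.0538 (Podxl), -0.12 to 0.0572 (Ptpro) and -0.0319 to 0.13 (Synpo). The cause was not tested.

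Among circular RNAs, leaving out 1 mouse gave 0 to 1 calls for 24 against 3 months. Pairs of members past adjustment numbered 1 as reported, 5 without centring, 0 with the GC slope regressed out (chosen after seeing the data) and 1 to 3 with 1 mouse left out. Depth limits what the low rows show, since values of single transcripts near 0 cannot be told from no assignment. No paired analysis was possible because mice of different ages share no replicate number.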
